A study of Bos taurus with 25 samples.

Results

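The enzymes that carry propionate into the citric acid cycle and on to glucose were followed in the liver and mammary gland of lactating dairy cows. Of 8 genes listed for these steps, 7 were represented on the array (PCCA, PCCB, MCEE, PC, PCK1, FBP1 and G6PC, whose current symbol is G6PC1). They were taken as every non-control probe whose transcript identifier maps to one of these symbols, which gave 14 of 43653 probes: 3 each for PC and PCK1, 2 each for PCCA, PCCB and FBP1, and 1 each for MCEE and G6PC. The array carried 11068 current gene symbols in all. Where a gene had more than 1 probe, its brightest probe is described in full and the others more briefly. The listed PCK2 was not analysed here.

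In ruminants, dietary carbohydrate is fermented in the rumen and little glucose is absorbed, so the liver makes glucose for the body and for milk lactose, with propionate as its main substrate. Propionyl-CoA is carboxylated by an enzyme built from PCCA and PCCB, its product is turned into the mirror form by the epimerase MCEE, and the mutase MMUT, which carries a form of vitamin B12 as its coenzyme, rearranges that form into succinyl-CoA. Pyruvate enters through pyruvate carboxylase (PC), PCK1 is the cytosolic enzyme that makes phosphoenolpyruvate from oxaloacetate, FBP1 splits a phosphate from fructose bisphosphate, and G6PC releases free glucose from glucose 6-phosphate.

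The arrays came from 13 multiparous Holstein cows given 1 of 4 weekly intramuscular injections of 5 mL. Control cows received 0.9% NaCl, B9 cows 320 mg of folic acid, B12 cows 10 mg of vitamin B12 as cyanocobalamin, and B9 + B12 cows both vitamins at these doses. Biopsies were taken 64 ± 3 days after calving. The liver was measured in 3 control, 3 B9, 4 B12 and 2 B9 + B12 cows (12 arrays), and the mammary gland in the same cows plus 1 more B9 + B12 cow, numbered 31 (13 arrays). The question was whether the vitamins changed hepatic and mammary transcripts. All cows were in milk and each array held RNA of a whole biopsy, so fewer cells of a type and less RNA per cell cannot be told apart.

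The tissue labels were checked against marker genes. The mean log2 intensity of 9 hepatocyte markers lay between 17.62 and 17.85 in the liver and between 6.61 and 9.10 in the mammary gland, with the highest gland values in cows 57 (9.10) and 31 (8.11) against a median of 6.89. The mean of 8 milk protein and milk fat markers lay between 17.76 and 18.01 in the gland and between 7.25 and 10.35 in the liver, where cows 36 (10.35) and 37 (10.01) stood above the median of 8.14. Both of those cows received B12. Between 71.2% and 84.2% of probes were well above background on the liver arrays and between 64.4% and 76.5% on the gland arrays. The liver arrays of cows 32 (B9 + B12) and 57 (B9) correlated less with the other liver arrays (mean r 0.972 each) than the remaining ones did (0.986 to 0.988). Values without these arrays stand beside the main differences that moved with them.

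All 7 genes had higher transcript levels in the liver than in the mammary gland. The intensity of PCK1 was 819-fold higher in the liver, and that of G6PC, which was at background in most glands, at least 88.1-fold higher. The propionyl-CoA carboxylase genes PCCA and PCCB were 9.07-fold and 5.82-fold higher, FBP1 was 5.58-fold higher, PC 4.53-fold and MCEE 2.76-fold. In 12 of 12 cows with both biopsies each of the 7 genes was higher in the liver (exact two-sided paired permutation test, p = 0.000488 for each gene, the smallest value that 12 pairs allow). A probe was called different at a limma adjusted p of at most 0.05 together with a change of at least 2-fold. By that rule 13 of the 14 probes were called higher in the liver, where 8.8% of all probes were called higher, 9.88% lower and 18.7% in either direction. On all 14 probes the lowest liver array lay above the highest gland array, as it did for 12.6% of all probes.

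**Figure D1:**
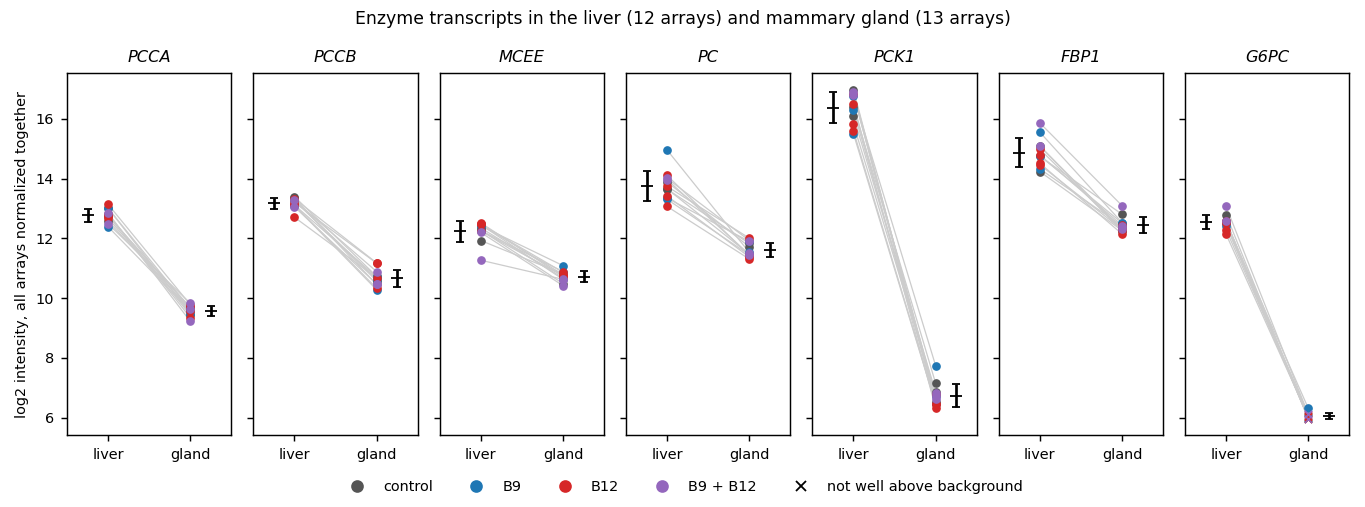
Log2 intensity of each gene's brightest probe with all 25 arrays normalized together. Each point is 1 array, coloured by treatment, grey lines join the 2 tissues of a cow, black bars are the mean and SD over the arrays of a tissue, and crosses mark arrays on which the probe was not well above background. The tissues do not overlap for any gene, and G6PC is well above background in 1 of 13 gland arrays.

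For the step that carboxylates propionyl-CoA, both subunits lay apart between the tissues on the scale that normalized all arrays together. The liver arrays of PCCA lay between 12.39 and 13.14 (median 12.78) and its gland arrays between 9.22 and 9.83 (median 9.62). The tissue difference in PCCA was 3.18 on the log2 scale (SE 0.09, limma adjusted p = 1.82e-17). The liver arrays of PCCB lay between 12.71 and 13.40 (median 13.23) and its gland arrays between 10.28 and 11.18 (median 10.64), a difference of 2.54 (SE 0.10, adjusted p = 5.01e-15). The second probe of PCCA differed by 3.21 and that of PCCB by 2.75. MCEE, the epimerase, had liver arrays from 11.27 to 12.52 (median 12.32) and gland arrays from 10.42 to 11.09 (median 10.73). Its difference was 1.47 (SE 0.09, adjusted p = 6.15e-12). The lowest liver array of MCEE was that of cow 32, whose own difference between tissues was 0.64, the smallest of the 12 cows.

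At the entry and exit of oxaloacetate, PC and PCK1 were both higher in the liver. Hepatic PC lay between 13.07 and 14.96 (median 13.70) and mammary PC between 11.31 and 12.01 (median 11.52), a difference of 2.18 (SE 0.16, adjusted p = 3.48e-10). A second bright PC probe differed by 2.77, and the third, which was dim in both tissues, by 0.91, below the 2-fold limit. Hepatic PCK1 lay between 15.51 and 16.98 (median 16.46) and mammary PCK1 between 6.33 and 7.74 (median 6.71). Its difference of 9.68 (SE 0.18, adjusted p = 2.22e-20) was exceeded by 0.153% of all probes. PCK1 was detected in the gland, since its brightest probe was well above background on all 13 gland arrays. Its other probes were detected on fewer gland arrays: one passed on 6 of 13 arrays and the other on 0 of 13, so that only bounds can be given, at least 341-fold and at least 31.6-fold higher in the liver.

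The last steps of the pathway parted in whether their probes were detected in the gland. FBP1 was well above background on every gland array, at 12.15 to 13.10 (median 12.42) against 14.24 to 15.87 (median 14.78) in the liver. The difference was 2.48 (SE 0.14, adjusted p = 3.95e-12), and 2.59 on its second probe. G6PC lay between 12.14 and 13.07 in the liver (median 12.53) and between 5.96 and 6.31 in the gland (median 6.03), where it was well above background on the array of cow 57 alone. Its fitted difference was 6.53 (SE 0.06, adjusted p = 8e-25). With the gland set at the lowest signal that counts as detected, this became a bound of 6.46, or at least 88.1-fold.

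The size of these gaps depended on the scaling while their direction did not. All 7 genes were called higher in the liver under each of 39 alternatives. On the deposited values, which had been scaled within each tissue, the liver stood 0.555 above the gland at the median probe, and relative to that shift PCK1 differed by 10.77, PCCA by 4.33, PCCB by 3.76, FBP1 by 3.74, PC by 3.44 and MCEE by 2.59. For G6PC the deposited values gave a bound of 8.61 before that shift is taken off, or at least 391-fold. Scaling to the 75th percentile put the median probe at -0.484, and relative to it PCK1 and the other 5 genes detected in the gland differed by 11.58, 4.10, 3.49, 3.42, 3.17 and 2.30 in the same order. Without the liver arrays of cows 36 and 37 and the gland arrays of cows 31 and 57 the differences were 9.91 for PCK1 and 1.52 for MCEE, close to those over all arrays.

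The neighbouring steps of the pathway were split between the tissues. Among 11 genes of propionate uptake and the methylmalonyl pathway, 5 were called higher in the liver and 4 lower. Over all probes 8.8% were called higher and 9.88% lower. The median difference was 0.36 in this list, against -0.025 over all probes. The mutase gene MMUT was higher in the liver by 2.93 (SE 0.13, adjusted p = 6.15e-14). In the opposite direction, ACSS1 and ACSS2, which activate short-chain acids such as acetate, were lower in the liver, with differences of -5.73 and -3.82, and so was SLC16A1, a carrier of monocarboxylates (-3.40). The related ACSS3, named although the rule did not choose it, was higher in the liver by 2.75 (SE 0.16, adjusted p = 6.98e-12). On the deposited values the split was 7 to 3, where 90.0% of the calls over all probes were higher in the liver (14187 to 1569).

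Of 16 genes of the hexose phosphate and triose steps, 7 were called higher in the liver and 2 lower. The shares over all probes were 8.8% higher and 9.88% lower, here and for the lists that follow. The aldolase gene ALDOC was lower in the liver, with a difference of -4.60 (SE 0.14, adjusted p = 8.25e-17). SLC37A4, the transporter that feeds G6PC its substrate, was higher in the liver by 3.38 (SE 0.08, adjusted p = 2.32e-18). Of 11 genes measured among the glycolytic counterparts, 3 were higher and 3 lower. PFKFB1, which sets the level of a regulator of FBP1, was well above background on 1 of 13 gland arrays and at least 70.1-fold higher in the liver. The glucose transporter SLC2A2 was also detected on 1 of 13 and was at least 22.2-fold higher.

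Among 19 genes measured for carbon supply and mitochondrial transport, 7 were higher in the liver and 2 lower. Among those named by the rule, the aminotransferase TAT was detected on 6 of 13 gland arrays and was at least 199-fold higher in the liver, while the aminotransferase GOT1 differed by 3.72 and LDHA by 2.53. Of 7 regulators measured, 1 was called higher and 2 lower. HNF4A, a transcription factor of hepatocytes, was detected on 3 of 13 gland arrays and was at least 448-fold higher in the liver. CEBPA (-1.48) and CEBPB (-1.14) were lower in the liver. On the deposited values they stood at 0.41 and 0.29, where the median probe stood at 0.555. Their sign thus changed with the scaling, while both stayed below the median probe there. On the deposited values the splits of these 4 lists were 11 to 1, 5 to 2, 16 to 0 and 4 to 0, beside that same share of 90.0% over all probes.

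Within the liver, no treatment changed a transcript of these genes by the test. In the comparison of B9 with control, 0 of the 14 probes were called (0% of all probes), in that of B12 with control 0 (0.00229% of all probes, a single probe) and in that of B9 + B12 with control 0 (0%). At an unadjusted p under 0.05 limma found 0 of the 14 in each of the 3 comparisons, where 3.42%, 1.99% and 5.98% of all probes lay, and the methods' Cyber-T test found 0, 0 and 1 of the 7 genes (FBP1), against 4.25%, 4.39% and 6.34% of all probes. FBP1 did not hold after adjustment in Cyber-T (adjusted p = 0.785), which called 5, 48 and 26 of all probes and none of the 7 genes. The values below are log2 intensities as deposited.

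In the propionate steps the cows of the groups were mixed. Hepatic PCCA was 14.00, 13.53 and 13.77 in the control cows, 13.70, 14.01 and 13.31 with B9, 13.63, 13.72, 14.15 and 13.78 with B12, and 13.41 and 13.82 with B9 + B12. The lowest of these values came from cow 57 and the highest from a B12 cow, and every group overlapped the controls. The B9 difference of -0.09 turned to 0.09 without cow 57, and that of B9 + B12 from -0.15 to 0.05 without cow 32. The B12 difference was 0.06, and 0.20 without cows 36 and 37. Hepatic PCCB was 14.44, 14.30 and 14.36 in the controls, 14.12, 14.30 and 14.10 with B9, 13.68, 14.12, 14.22 and 14.36 with B12, and 14.29 and 14.05 with B9 + B12. Both B9 + B12 values lay just below the 3 controls, a difference of -0.19 (SE 0.18, limma adjusted p = 0.716; exact two-sided permutation p = 0.2, the smallest that 2 against 3 allow), and its sign turned under 75th percentile scaling (0.14). Without cow 32 it was -0.31. The second PCCB probe also had both cows below the controls (difference -0.30, SE 0.25). The B12 cows averaged 0.27 below the controls on the log2 scale (difference -0.27, SE 0.15). Their lowest value was that of cow 36, the liver array with the highest milk markers, and without cows 36 and 37 the difference was -0.08.

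Hepatic MCEE was 13.29, 12.79 and 13.21 in the controls, 13.19, 13.40 and 13.34 with B9, 13.42, 13.18, 13.47 and 13.42 with B12, and 12.06 and 13.12 with B9 + B12. A single array, that of cow 32 at 12.06, lay apart from the other 11. The B9 + B12 difference was -0.50 with it (SE 0.26) and 0.03 without it. The B9 and B12 differences of MCEE were 0.21 and 0.27.

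Hepatic PC had the widest range between cows on the brightest probes. It was 14.71, 14.65 and 14.92 in the controls, 14.37, 14.35 and 15.83 with B9, 15.13, 14.43, 14.79 and 14.07 with B12, and 14.97 and 14.99 with B9 + B12. The top value came from cow 57, and the B9 cows lay on both sides of the controls. Their difference of 0.09 turned to -0.41 without that cow, and the B12 difference of -0.16 was -0.33 without cows 36 and 37. The B9 + B12 cows lay just above all 3 controls, with a difference of 0.22 (SE 0.42, limma adjusted p = 0.86; exact two-sided permutation p = 0.2), while on the other PC probes they overlapped the controls. Over its 12 arrays PC spanned 1.77 on the log2 scale, or 3.40-fold, while PCCB spanned 0.76, or 1.69-fold. Among the other probes, a probe of PCK1 spanned 2.57.

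Hepatic PCK1 was 17.61, 16.82 and 17.11 in the controls, 16.35, 17.01 and 17.44 with B9, 16.59, 16.40, 17.51 and 17.20 with B12, and 17.46 and 17.56 with B9 + B12. The highest value was that of a control cow, and the B9 and B12 groups each reached from below the controls to within their range. The differences were -0.25 (SE 0.34) with B9, -0.25 (SE 0.32) with B12 and 0.33 (SE 0.38) with B9 + B12. The B12 difference turned to 0.17 without cows 36 and 37, and that of B9 was -0.50 without cow 57.

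Hepatic FBP1 was 16.06, 15.25 and 15.75 in the controls, 15.33, 15.78 and 16.36 with B9, 15.55, 15.46, 15.81 and 15.93 with B12, and 15.93 and 16.62 with B9 + B12. One B9 + B12 cow held the highest value and the other lay among the controls. The difference of 0.59 (SE 0.33, 95% interval -0.13 to 1.31, limma adjusted p = 0.664) was the largest of the 21 hepatic ones on the brightest probes. It was 0.25 without cow 38 and 0.94 without cow 32. On the second FBP1 probe both B9 + B12 cows, at 15.14 and 15.56, lay above the controls at 14.90, 14.28 and 14.89. Its difference of 0.66 (SE 0.31, 95% interval -0.03 to 1.35) did not pass the test either (limma adjusted p = 0.664; exact two-sided permutation p = 0.2). The B9 difference of 0.14 turned to -0.13 without cow 57, and the B12 cows averaged 0.18 above the controls without cows 36 and 37.

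Hepatic G6PC was 13.77, 13.47 and 13.53 in the controls, 13.37, 13.46 and 13.50 with B9, 13.22, 13.05, 13.52 and 13.46 with B12, and 14.07 and 13.52 with B9 + B12. The lowest values belonged to cows 36 and 37 and the highest to cow 32. The B12 difference was -0.28 (SE 0.16) over all cows, and -0.10 without cows 36 and 37, the arrays with the highest milk markers. The B9 + B12 difference of 0.21 turned to -0.07 without cow 32.

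**Figure D2:**
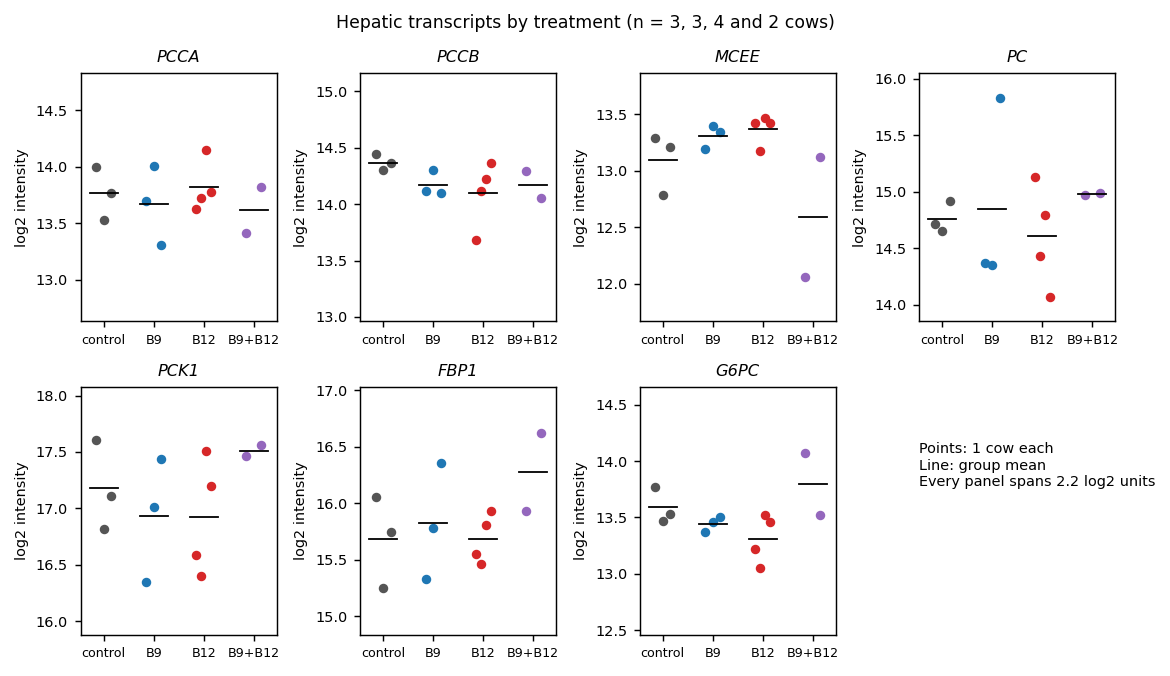
Hepatic log2 intensity of each gene's brightest probe as deposited, by treatment. Each point is 1 cow, the black line is the group mean, and every panel spans the same width of the log2 scale. Both B9 + B12 cows lie above the controls for PC and below them for PCCB, the other groups overlap the controls, and single arrays such as PC at 15.83 and MCEE at 12.06 lie far from their groups.

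The precision of these comparisons can be read from their intervals. On the brightest probes the 21 hepatic differences lay between -0.50 and 0.59, and their 95% intervals reached from -1.08 to 1.31. A 2-fold change in either direction lay outside the interval in 17 of 21 comparisons. Ordered by mean, 42 of 42 neighbouring treatment groups overlapped over both tissues. This count has no share over all probes beside it and leaves out groups that are not neighbours. No probe of the 14 kept treated and control livers apart with B9 (8.44% of all probes did) or B12 (4.96%), and 4 of 14 did with B9 + B12 (21.7%), where 2 treated cows were measured.

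In the mammary gland no treatment changed a transcript of these genes by the test either. It called 0 of the 14 probes with B9, B12 or B9 + B12 (0% of all probes each), and at an unadjusted p under 0.05 limma found 0 of the 14, against 2.6%, 2.25% and 1.98% of all probes. Cyber-T found 1 of the 7 genes (PCK1) at that level with B12 and none with the other treatments, where 3.47%, 3.62% and 3.48% of all probes lay with B9, B12 and B9 + B12. After adjustment it called 12, 12 and 10 of all probes and none of the 7 genes. Leaving out G6PC, which was at background, the 18 differences of the other 6 genes lay between -0.43 and 0.24, and a 2-fold change lay outside the 95% interval in 17 of them. Treated and control glands overlapped on all 14 probes with B9 (7% of all probes did not overlap), B12 (3.86%) and B9 + B12 (6.88%).

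Mammary PCCA was 8.88, 8.90 and 8.71 in the controls, 8.93, 8.75 and 8.84 with B9, 8.84, 8.95, 9.04 and 8.62 with B12, and 8.90, 9.09 and 8.49 with B9 + B12. The 4 groups covered one another. Mammary PCCB was 9.97, 9.81 and 9.70 in the controls, 9.94, 9.87 and 9.53 with B9, 9.91, 9.57, 10.38 and 10.40 with B12, and 9.73, 10.11 and 9.71 with B9 + B12. A pair of B12 cows lay above the rest, with a group difference of 0.24 (SE 0.20). Mammary MCEE was 9.92, 10.04 and 9.73 in the controls, 10.11, 9.86 and 10.32 with B9, 10.01, 9.98, 9.96 and 10.09 with B12, and 9.85, 9.86 and 9.66 with B9 + B12. Each treated group overlapped the controls, although the B12 cows lay above the B9 + B12 cows, and the largest of its differences was 0.20 (SE 0.12) with B9, and 0.09 without cow 57.

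Mammary PC was 10.67, 11.00 and 10.90 in the controls, 11.06, 10.65 and 10.73 with B9, 10.63, 10.59, 11.17 and 10.53 with B12, and 10.72, 11.09 and 10.67 with B9 + B12. The array of cow 40 stood above the other 3 B12 cows. Mammary FBP1 was 11.38, 11.39 and 11.90 in the controls, 11.53, 11.63 and 11.64 with B9, 11.29, 11.43, 11.55 and 11.40 with B12, and 11.53, 11.44 and 12.15 with B9 + B12. Its values lay close together apart from a control cow and a B9 + B12 cow at the top. Mammary PCK1 was 5.52, 5.95 and 6.31 in the controls, 5.42, 5.77 and 6.96 with B9, 5.85, 5.46, 5.42 and 5.25 with B12, and 5.92, 5.77 and 5.64 with B9 + B12. Its B12 difference of -0.43 (SE 0.30, 95% interval -1.09 to 0.23) was the largest in the gland. The B9 difference of 0.13 turned to -0.33 without cow 57. Mammary G6PC lay between 4.66 and 5.23 over all groups, at background except on the array of cow 57, and no difference is given for it.

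**Figure D3:**
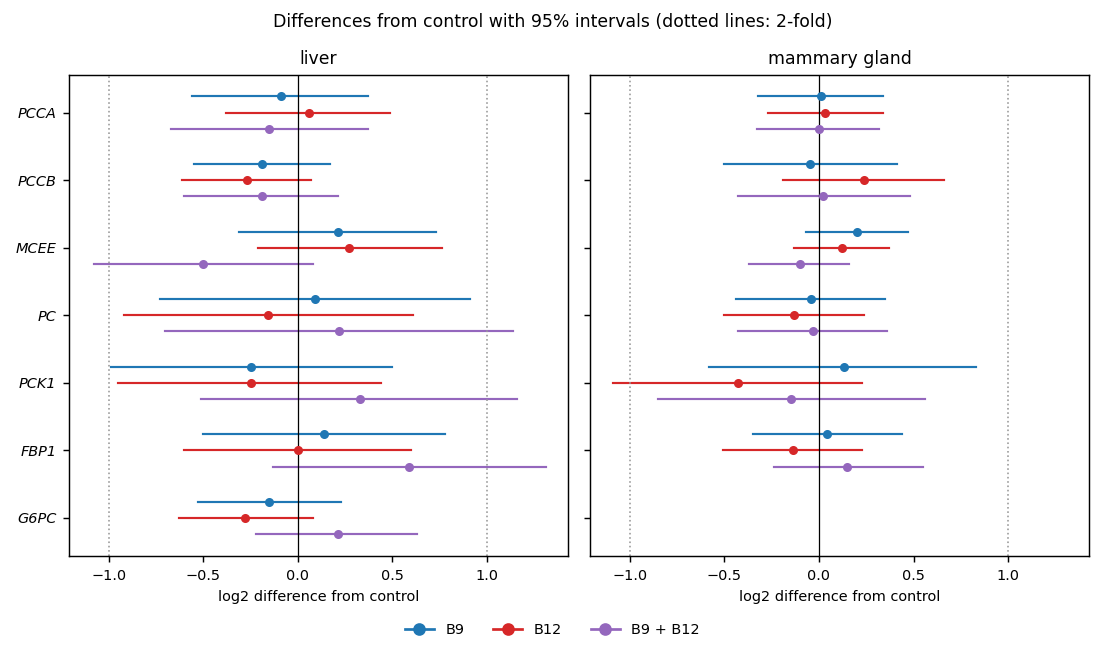
Log2 difference from control for each gene and treatment, with 95% intervals from the limma fit, in liver (left) and mammary gland (right). Dotted lines mark a 2-fold change. Every interval crosses 0, and most lie inside the dotted lines. G6PC is not drawn for the gland, where it was at background.

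The cows with B12, alone or combined, were also set against those without it, since one step of the pathway uses the vitamin. The contrast of group means called 0 of the 14 probes in the liver and 0 in the gland (0% of all probes each), and at an unadjusted p under 0.05 limma found 0 of the 14 in both, against 2.94% and 1.66% of all probes. The hepatic differences lay between -0.22 for MCEE and 0.23 for FBP1, and the mammary ones between -0.35 for PCK1 and 0.15 for PCCB. Without cow 32 that of MCEE turned to 0.04 and that of FBP1 was 0.40, and that of PCK1 was -0.13 without the gland array of cow 57. A test of whether a treatment acted differently in the 2 tissues called 0 of the 14 probes for B9, B12 and B9 + B12 (0% of all probes each), with 0 at an unadjusted p under 0.05 in limma, against 2.36%, 1.82% and 4.27% of all probes. The largest of these differences of differences was 0.62 (SE 0.42) for FBP1 with B9 + B12.

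The vitamin-dependent step itself was read from MMUT. Hepatic MMUT was 14.44, 14.06 and 14.07 in the controls, 14.02, 14.28 and 13.56 with B9, 13.46, 13.79, 13.70 and 14.26 with B12, and 12.87 and 14.52 with B9 + B12. The lowest value was that of cow 32 and the highest that of the other B9 + B12 cow, and each treated group overlapped the controls on this probe. The hepatic differences from control were -0.23, -0.38 and -0.50, and the mammary ones 0.14, -0.01 and 0.01, none of which passed the test. The hepatic B9 + B12 difference turned to 0.33 without cow 32, that of B9 was -0.04 without cow 57 and that of B12 was -0.21 without cows 36 and 37. These values came from a single MMUT probe out of 4. On another, the hepatic B12 cows lay below the controls (-0.39, SE 0.27), as 2.51% of all probes did. The largest hepatic B9 + B12 difference over the probes was -0.86 (SE 0.49), with the groups overlapping. Neither passed the test.

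MMAA, which takes part in loading the mutase with its B12 coenzyme, was named after its values were seen. The rule on non-overlapping groups also named it with B12 in the liver and with B9 and B12 in the gland. Hepatic MMAA was 12.09, 12.36 and 12.36 in the controls, 11.68, 11.71 and 11.73 with B9, 11.88, 11.87, 12.01 and 11.96 with B12, and 11.77 and 11.79 with B9 + B12. All 9 treated cows lay below the 3 control cows, which the treatments share as their reference. The differences were -0.56 (SE 0.11), -0.34 (SE 0.10) and -0.49 (SE 0.12), with limma adjusted p = 0.891, 1 and 0.664 over all probes, so that none passed the test. Mammary MMAA was 8.45, 8.54 and 8.83 in the controls, 7.74, 7.84 and 8.07 with B9, 8.08, 8.20, 8.36 and 8.34 with B12, and 8.20, 8.55 and 8.57 with B9 + B12. The B9 and B12 cows lay below the controls there too, with differences of -0.72 (SE 0.14) and -0.36 (SE 0.13). The B9 + B12 cows overlapped them (-0.17, SE 0.14). These values came from a single MMAA probe out of 3. On the other probes the mammary B12 cows overlapped the controls (-0.13 and -0.25). The mammary B9 differences there were -0.35, still below the controls, and -0.25, overlapping them. With B12 the hepatic cows lay below the controls on another probe (-0.34) and overlapped on the last (-0.22). The hepatic B9 and B9 + B12 cows lay below the controls on every probe. Groups lying wholly below control made up 4.16%, 2.51% and 9.97% of all probes for the hepatic comparisons, and 3.18% and 1.66% for the first pair of mammary ones.

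In the 5 pathway lists, 0 genes were called in any treatment comparison. Outside the propionate list, the largest non-overlapping hepatic differences were those of PFKFB1 with B9 + B12 (-1.15, SE 0.45) and SLC2A2 with B9, which lay at 0.50 of its control level. On the log2 scale they were -0.43 and -0.60 without the arrays of cows 32 and 57. PFKFB1 with B9 and SLC2A2 with B9 + B12 each differed by -0.88, and by -0.44 and -0.49 without those arrays. PPARGC1A, a coactivator of gluconeogenic genes, differed by -0.66 with B9, and by -0.34 without those arrays. ACSS2 with B9 + B12 differed by -1.20 (SE 1.07), and by -1.67 without those arrays. With B12, GOT2 differed by 0.19. In the gland, PFKFB3 differed by 0.99 (SE 0.48) with B9 and GK, the glycerol kinase, by -0.35 (SE 0.12) with B9 and -0.29 with B9 + B12. The remaining non-overlapping ones named by the rule were MMAB (-0.19) and OGDH (0.17) with B9 + B12, and PGAM2 and ENO2 (0.24 each) with B12. None of these passed the test.

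Within the liver, PCK1 varied together with FBP1 and with G6PC from cow to cow. Over 12 cows PCK1 correlated with FBP1 (Pearson r = 0.81, permutation p = 0.00119, adjusted p = 0.025 over the 21 pairs of genes; Spearman rho = 0.86, permutation p = 0.00056, adjusted p = 0.0118). PCK1 also correlated with G6PC (r = 0.73, permutation p = 0.00343, adjusted p = 0.036; rho = 0.82, permutation p = 0.00169, adjusted p = 0.0177). The other 19 pairs had adjusted permutation p-values of at least 0.343, among them FBP1 with G6PC (r = 0.41, adjusted p = 0.422). Over all 21 pairs r ranged from -0.62 to 0.81 with a median of 0.17.

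The relation of PCK1 with FBP1 changed little with the cows included. It was 0.76 without the 2 cows farthest from the median of PCK1, 0.80 without cows 32 and 57, 0.79 without cows 36 and 37, 0.81 among the 9 arrays of the first scan day and 0.82 on deviations from the treatment means. For PCK1 with G6PC the same values were 0.64, 0.81, 0.54, 0.78 and 0.64. The value was lowest without cows 36 and 37, which were low in both genes. Both carried milk markers, whose part was not tested. The later scan day held 3 liver arrays, too few for a value of their own. Across the probes of these genes r lay between 0.59 and 0.86 for PCK1 with FBP1 and between 0.57 and 0.73 for PCK1 with G6PC. Among 29633 probes compared, 0.128% had an r with PCK1 at least as high as that of FBP1, and 0.594% one at least as high as that of G6PC. Macrophage markers had an r of 0.74 with G6PC, 0.38 with PCK1 and 0.08 with FBP1, which were 0.36, 0.31 and 0.02 without cow 32, and their part was not tested.

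**Figure D4:**
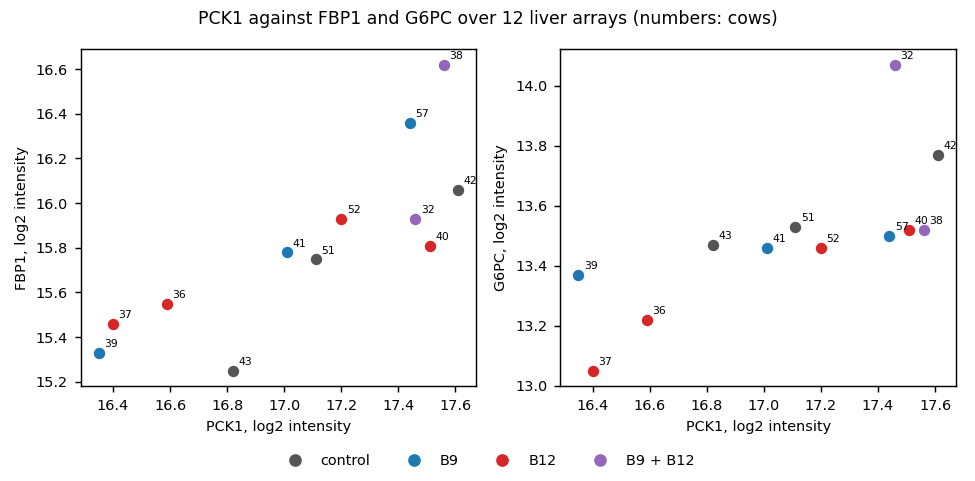
Hepatic log2 intensity of PCK1 (horizontal axes) against FBP1 (left) and G6PC (right), 1 point per cow, coloured by treatment and labelled with the cow's number. Both enzymes rise with PCK1 over the 12 cows (r = 0.81 and 0.73). The B9 and B12 cows lie from the low end of the PCK1 range to 17.51, and both B9 + B12 cows lie near its top.

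Markers of other cell types were correlated with several of the enzymes on the liver arrays. PCCB was lower where milk markers were higher (r = -0.82 over 12 cows, and -0.69 without cows 36 and 37). MCEE had an r of -0.71 with macrophage markers, which was 0.05 without cow 32. With milk markers G6PC had an r of -0.53, which was 0.03 without cows 36 and 37 and -0.73 without cows 32 and 57. The r of PC with milk markers was 0.46, and 0.82 without cows 36 and 37. For the other genes r with milk markers lay between -0.32 and 0.19. These values are descriptions, and their part in the differences between cows was not tested. Between the liver and the gland of the same cow, FBP1 had the highest correlation between tissues (r = 0.59 over 12 cows, permutation p = 0.0417, adjusted p = 0.292 over 7 genes; rho = 0.37), and it was 0.10 without the 2 farthest cows. The other 6 genes lay between -0.16 and 0.26.

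The gene most alike in pattern over the 12 liver arrays was taken for each enzyme from 18279 probes that were detected on all of them. It was PABPC1 for PCCA (r = 0.937), AOX1 for PCCB (0.897), DIABLO for MCEE (0.957), MFSD2A for PC (0.952), PEMT for PCK1 (0.904), APOA5 for FBP1 (0.903) and DSP for G6PC (0.888). Without cows 32 and 57 these values were 0.877, 0.91, 0.925, 0.941, 0.919, 0.893 and 0.767. They are the best of many candidates over few arrays and carry no test.

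The few gland arrays with a raised signal of PCK1 and G6PC were compared with their hepatocyte markers. Cow 57 had the highest gland value of PCK1 (6.96), of G6PC (5.23) and of the marker mean (9.10), and her gland array showed ALB, the serum albumin gene, at 10.52 against a median of 5.52 over 13 arrays. Over the 13 arrays, the marker mean correlated with PCK1 (r = 0.73, permutation p = 0.017, adjusted p = 0.0595 over 7 genes; rho = 0.34) and with G6PC (r = 0.83, permutation p = 0.00301, adjusted p = 0.0211; rho = 0.49, adjusted p = 0.569). Without the 2 arrays farthest from the median the values were 0.07 and 0.29, so that both relations rested on those arrays. G6PC was well above background on 1 of the 13 arrays, that of cow 57. Its test therefore cannot tell a relation from that single array. PCK1 was well above background also on the gland arrays with the lowest marker means.

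**Figure D5:**
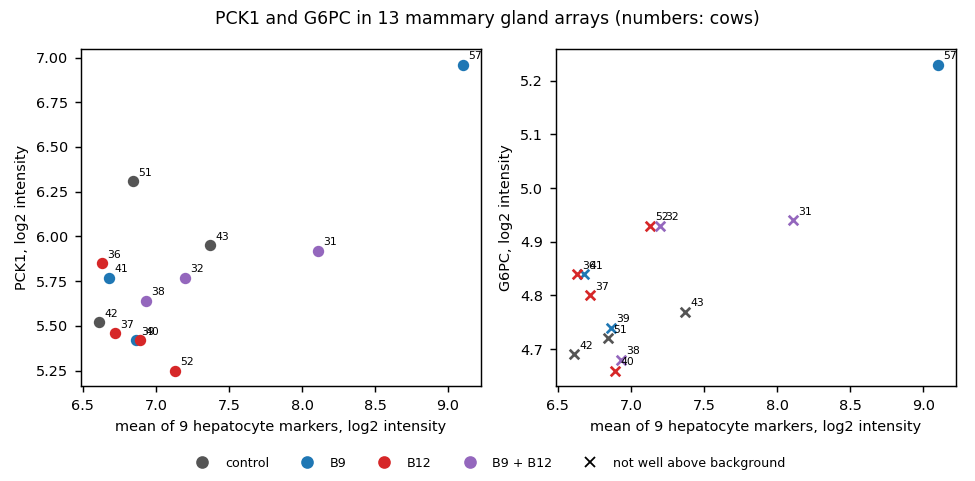
Log2 intensity of PCK1 (left) and G6PC (right) in the 13 gland arrays against the mean log2 intensity of 9 hepatocyte markers on the same arrays. Points are coloured by treatment and labelled with the cow's number, and crosses mark arrays on which the probe was not well above background. Cow 57 lies alone at the upper right of both panels.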

How the data were processed

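RNA of liver and mammary biopsies was labelled with Cy3 and hybridised to 1-colour bovine 4x44K oligonucleotide arrays. Scanner intensity values were deposited as written by Agilent Feature Extraction (version 10.7.3.1 per the file headers, 9.1 in the submitters' processing notes). The authors also deposited log2 values, normalized separately in each tissue. A normexp background correction with offset 16 followed by quantiles within a tissue came within a median of 0.00185 (liver) and 0.000951 (gland) of them. These deposited log2 values were used within a tissue. For comparisons of tissues, median signals of all 25 arrays were corrected with normexp (offset 50) and quantile normalized together, and a probe detected on few or no gland arrays was set, where lower, at the lowest detected signal of each array to give a bound. Agilent's identifiers were matched to RefSeq symbols.

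Linear models in limma 3.58.1 (R 4.3.3) were fitted over all 43653 probes, with Benjamini-Hochberg adjustment. All groups of a tissue shared one estimate of the spread. Single values were tested by exact permutation over cows (scipy 1.17.1), where the smallest two-sided p is 0.1 for 3 against 3 cows and 0.0571 for 4 against 3. Correlations used 100000 permutations. The genes, the pathway lists and the markers were chosen with earlier results of these data known. From each list the 3 genes with the largest tissue difference among those called are named (a few are not reported here), and per treatment up to 3 whose cows did not overlap the controls. The models were tested on simulated data, where for hepatic B9 against control 94.5% of 200 probes changed by 1.5 to 4 on the log2 scale were found. Smaller changes, such as the hepatic treatment differences given here, were not simulated. Alternatives were the scaling, background correction, dim probe filter, outlier spots, slide and cow as blocks, array weights, the Cyber-T test of the study's methods (window 101, confidence 10) and leaving out arrays. The number of arrays limits the precision. The tissues of a cow were paired by the cow's number, which the labels give for both biopsies. Deviations from group means correlated between the tissues of a cow by -0.251 to 0.215 (median 0.0371), above 0.1 in 2 of 12 cows. The cows were assigned to blocks by earlier milk yield in the study, and those blocks were not used here.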

Additional observations from a re-analysis of the deposited data

Results flagged for a closer look

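PC in the mammary gland of cow 40, which received B12, read 11.17 on the log2 scale while the other 3 B12 cows read 10.63, 10.59 and 10.53. Its gap to the nearest of them was 0.837 of the group's range, above the 95% limit for 4 values. It was 1 of 13 groups examined, of which chance marks about 1 in 20.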

How the results depend on the processing

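The count of genes called was 0 in each treatment comparison and in each test of a difference between tissues under every alternative run, 19 to 39 per comparison, and 7 for liver against gland under 39. Leaving out each array in turn, the counts stayed at 0 and at 7. Leaving out a B9 + B12 liver array left that group with a single cow, so that its comparison with control then gave effect sizes only. With the cow as a block, the pairing of the tissues changed no call (7 genes, and 8154 of all probes called with a random block, 8221 with a fixed one, against 8154 without). Of 42 treatment differences, 15 kept their sign under every alternative and 27 did not. MCEE with B9 + B12 in the liver turned from -0.50 to 0.03 without cow 32, and to 0.03 without cows 32 and 57, and lay between -1.03 and 0.03 when each cow was left out in turn. PCCB in the same comparison turned to 0.14 at the 75th percentile. Between tissues, CEBPA turned to 0.41 and CEBPB to 0.29 on the deposited values, and to 0.41 and 0.28 with quantiles within each tissue. The median probe stood at 0.555 and 0.379 on these scalings, and only CEBPA on the latter lay above it. The cause was not tested. Over all probes the split of calls higher and lower in the liver was 3840 to 4314, against 14187 to 1569 on the deposited values, 11717 to 1270 with quantiles within each tissue and 6207 to 13401 at the 75th percentile. A fit of 2 groups alone was not run for B12 against no B12, which needs all 4. With 2 to 4 cows a group, the 95% interval held a 2-fold change in 4 of 21 hepatic differences.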
